A study of Mus musculus with 2 samples.

Results

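Border macrophages are the macrophages at the edges of the brain, in the meninges, around blood vessels and in the choroid plexus. They were sought here among the cells of 2 single-cell libraries of the mouse dentate gyrus by a rule on raw counts of unique molecular identifiers (UMIs, each standing for 1 captured transcript). A cell was kept with at least 5 UMIs of C1qa, C1qb and C1qc together and at least 3 UMIs of Mrc1 and Pf4 together, after barcodes under 1000 UMIs or 500 genes, or with over 10% of UMIs from the mitochondrial genome, had been dropped. The rule found 306 cells among 21370 filtered cells, 147 of 11414 in the control library and 159 of 9956 in the Setdb1_cKO library. These are 1.29% (95% Clopper-Pearson interval 1.09 to 1.51%) and 1.60% (1.36 to 1.86%) of the filtered cells. The label held for part of these cells. The 169 cells with at least 15 UMIs of Mrc1 and Pf4 (89 control and 80 Setdb1_cKO, called high cells below) carried the other genes known from border macrophages. The 137 cells with 3 to 14 such UMIs (58 and 79, called low cells) carried the genes known from microglia in nearly every cell and are named here by their counts only.

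The study profiled dissociated dentate gyrus cells at postnatal day 5 with 10x Genomics 3' version 3 libraries. The control library is labelled wild type and the other Setdb1_cKO, a conditional knockout of Setdb1, which encodes a methyltransferase that places the repressive histone mark H3K9 trimethylation. The labels name no Cre driver, deleted exons, mouse strain or number of animals, so which cells had lost the gene is not known from them. Each genotype had 1 library, so no difference between genotypes has a replicate check, no test was made, and every interval covers counting error only. The libraries also differed in sex: none of the 147 gated control cells had a UMI of Xist and 83 had UMIs of Y-linked genes, while 149 of 159 gated Setdb1_cKO cells had Xist and none had Y-linked genes. In what follows, an effect of genotype and one of sex cannot be told apart. The libraries shared 68 cell barcodes, none of them a gated cell.

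Macrophages and microglia both depend on the receptor Csf1r and both make the complement component C1q. Microglia live within the brain tissue and are known for P2ry12, a receptor for nucleotides, Tmem119, Sall1 and Siglech. Border macrophages sit along vessels and membranes, sample fluid and bind foreign and modified molecules through scavenger receptors and lectins such as Mrc1, Stab1 and Cd163. In young animals many of them carry the hyaluronan receptor Lyve1, and another subset known from adults carries MHC class II.

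**Figure D1:**
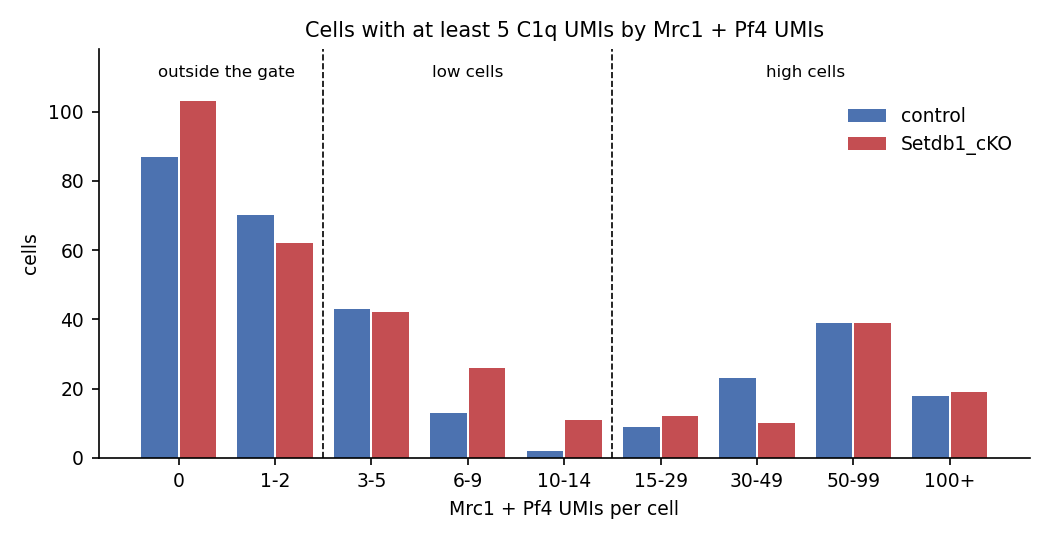
Number of cells (vertical axis) by the summed UMIs of Mrc1 and Pf4 (horizontal axis, in ranges) among cells with at least 5 C1q UMIs, control and Setdb1_cKO side by side. Counts are high at 0 to 5 UMIs, low between 10 and 29, and high again from 50 to 99, where each library had 39 cells. The ranges differ in width, so bar heights do not compare density.

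The values that chose the cells are given by range, which is a description of the rule and not a finding. The ranges differ in width, and in Setdb1_cKO the counts ran on across the boundary of 15 UMIs without a gap. Among the 304 control and 324 Setdb1_cKO cells with at least 5 C1q UMIs, 87 and 103 had no UMI of Mrc1 or Pf4, and these serve as the microglia for comparison. Just outside the rule, 70 and 62 cells had 1 or 2 UMIs of the pair. Just inside, 43 and 42 cells had 3 to 5. A further 2 and 11 cells had 10 to 14, and 9 and 12 had 15 to 29. In high cells Mrc1, the mannose receptor, had a lowest, median and highest count of 3, 19 and 70 UMIs per cell in control and 1, 18.5 and 55 in Setdb1_cKO. Pf4, a platelet-type chemokine that border macrophages also make, had 9, 46 and 144 UMIs in control high cells and 0, 47 and 154 in Setdb1_cKO. Low cells had entered mostly through Mrc1: its median was 4 and 5 UMIs, and Pf4 was seen in 12 of 58 and 18 of 79 of them. C1qa, a member of the C1q trio, was present in both ranges, with medians of 15 and 18 UMIs in high cells and 25.5 and 35 in low cells.

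Genes outside the rule separated high from low cells. The border set was the summed UMIs of Lyve1, F13a1, Cd163, Cbr2, Ms4a7 and Folr2, and the microglia set that of 6 genes that include P2ry12, Tmem119, Siglech, Sall1 and Sparc. The median high cell had 22 border and 1 microglia UMIs in control, and 21 and 1 in Setdb1_cKO. The median low cell had 0 border and 31.5 microglia UMIs in control, and 1 and 38 in Setdb1_cKO. Border UMIs outnumbered microglia UMIs in 89 of 89 and 76 of 80 high cells, but in 2 of 58 and 4 of 79 low cells. The cells just outside the rule had medians of 0 border and 32.5 microglia UMIs in control and 0 and 38 in Setdb1_cKO. The microglia used for comparison had medians of 0 border and 24 microglia UMIs in control and 0 and 13 in Setdb1_cKO. Their median microglia UMIs were thus below those of low cells in both libraries. Near the boundary of 15 UMIs the libraries were not alike: all 9 control cells with 15 to 29 UMIs had more border than microglia UMIs, against 9 of 12 in Setdb1_cKO, where 3 had more microglia UMIs. That boundary and both sets were chosen after the counts had been seen. The 306 gated cells are thus a mixture, with a high share of 60.5% (52.2 to 68.5%) in control and 50.3% (42.3 to 58.3%) in Setdb1_cKO, and each comparison below is given for high and low cells apart. As shares of all filtered cells, high cells were 0.780% (0.627 to 0.959%) and 0.804% (0.638 to 0.999%), and low cells 0.508% (0.386 to 0.656%) and 0.793% (0.629 to 0.988%).

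**Figure D2:**
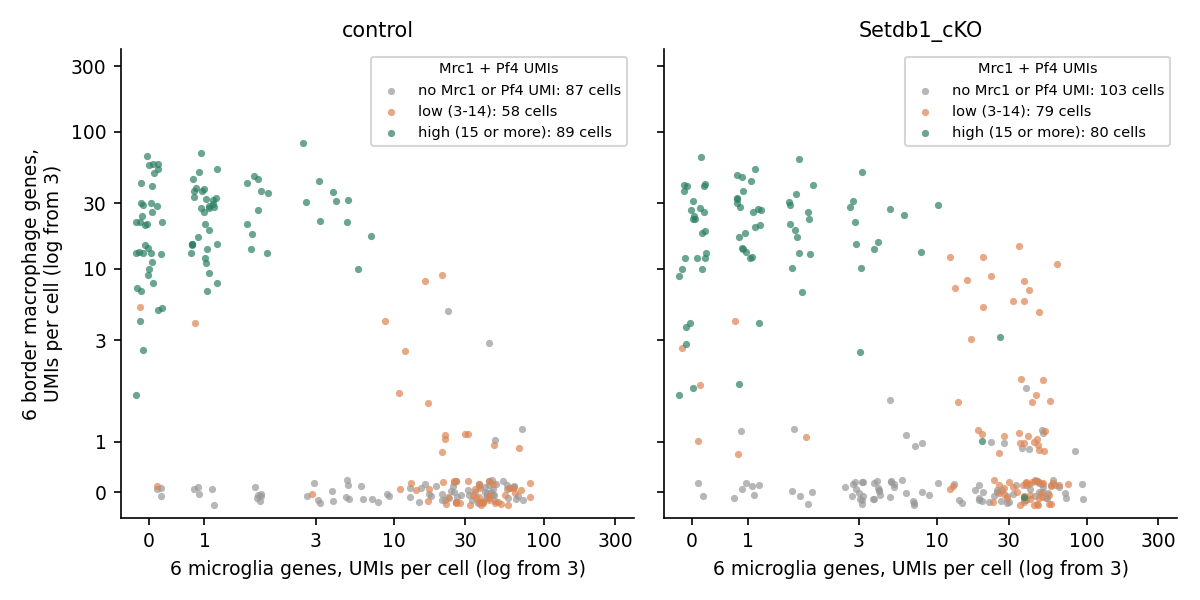
Each point is 1 cell, with its UMIs of the 6 microglia genes and of the 6 border macrophage genes on axes that are linear near 0 and logarithmic above, shifted at random by a small amount so that cells do not hide each other, with a panel for each library. High cells lie along the border axis, with medians of 22 and 21 border UMIs, and low cells lie with the microglia, with medians of 31.5 and 38 microglia UMIs.

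F13a1, the A chain of coagulation factor XIII and a gene of the border set, and P2ry12 of the microglia set stood at opposite ends, so the bases before their start sites are shown from RefSeq on GRCm38.p6. F13a1 lies on the minus strand of chromosome 13 (chr13:36867178-37050244) and P2ry12 on the minus strand of chromosome 3 (chr3:59216272-59262871) in GENCODE vM21. The windows are the 250 bases before the RefSeq start, chr13:37050245-37050494 and chr3:59262986-59263235, each 5′ to 3′ on the gene's strand. Capitals mark GAGGAA or, on the other strand, TTCCTC, the core bound by PU.1, the factor encoded by Spi1 that macrophages and microglia share.
F13a1: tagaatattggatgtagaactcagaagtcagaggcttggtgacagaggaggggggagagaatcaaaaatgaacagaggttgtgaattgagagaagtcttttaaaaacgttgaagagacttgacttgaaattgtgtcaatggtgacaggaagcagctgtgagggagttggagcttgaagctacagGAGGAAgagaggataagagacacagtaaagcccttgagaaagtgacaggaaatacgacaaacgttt
P2ry12: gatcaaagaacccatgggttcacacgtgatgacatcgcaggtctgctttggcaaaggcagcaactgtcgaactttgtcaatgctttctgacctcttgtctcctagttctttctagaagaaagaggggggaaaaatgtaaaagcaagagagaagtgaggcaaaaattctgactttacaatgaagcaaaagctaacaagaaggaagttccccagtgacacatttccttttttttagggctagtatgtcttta
The F13a1 window held 1 match and the P2ry12 window 0. Among genes higher in high cells than in microglia, defined below, 38 of 166 windows held a match (22.9%), against 19 of 81 of the lower genes (23.5%), 854 of 3775 of all genes measured (22.6%) and 23.1% of 27025 promoters in the table. The shares lay within 1 percentage point of each other, and a match is a run of letters, not a binding site.

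Depth and RNA of other cell types differed between the libraries in ways that touch the comparisons. High cells had medians of 4873 and 5555.5 UMIs, low cells 7167 and 9682, and microglia 5768 and 5612, in control and Setdb1_cKO. Doublet calls took 11 of 89 and 14 of 80 high cells and 8 of 58 and 8 of 79 low cells. UMIs from marker genes of other cell types, such as neurons, radial glia, vessels and red blood cells, passed 1% of a cell's UMIs in 5 control and 14 Setdb1_cKO high cells, and in 12 and 3 low cells, with a maximum of 41.4% in a control low cell. Results are therefore also given in clean cells, those with no doublet call and at most 1% of such UMIs, which left 77 and 63 high cells, 45 and 70 low cells, and 63 and 85 microglia. The limit was chosen after these values had been seen. The defining markers of other leukocytes were nearly absent from high cells: of 12 monocyte genes 9 and 8 were at 0 UMIs, Ly6c2 and Chil3 among them, with 33 and 31 UMIs in all. Of 10 neutrophil genes 9 were at 0 in each library, of 10 dendritic cell genes 8, and of 10 lymphocyte genes 9.

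High cells were compared with microglia of the same library, which gives the comparison in each library separately. Levels are given as CPM, the UMIs of a gene summed over the cells and scaled to the same total in every population, and a gene counted as different when the ratio was at least 2-fold the same way in both libraries with both 95% intervals clear of 1. Of 4693 genes with at least 30 UMIs in each library, 227 were higher (4.84% of them) and 108 lower (2.3%) in high cells. In clean cells the numbers were 216 higher (6.88%) and 116 lower (3.69%) of 3140. For all gated cells against microglia, 146 genes were higher (2.38%) and 14 lower (0.228%) of 6137, and 128 of the 146 were among the 227. A gene near 0 in microglia could reach the minimum of 30 UMIs through high cells alone, so the counts of list members below describe the lists and support nothing. The lists and the members named were chosen with earlier results of these data known.

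**Figure D3:**
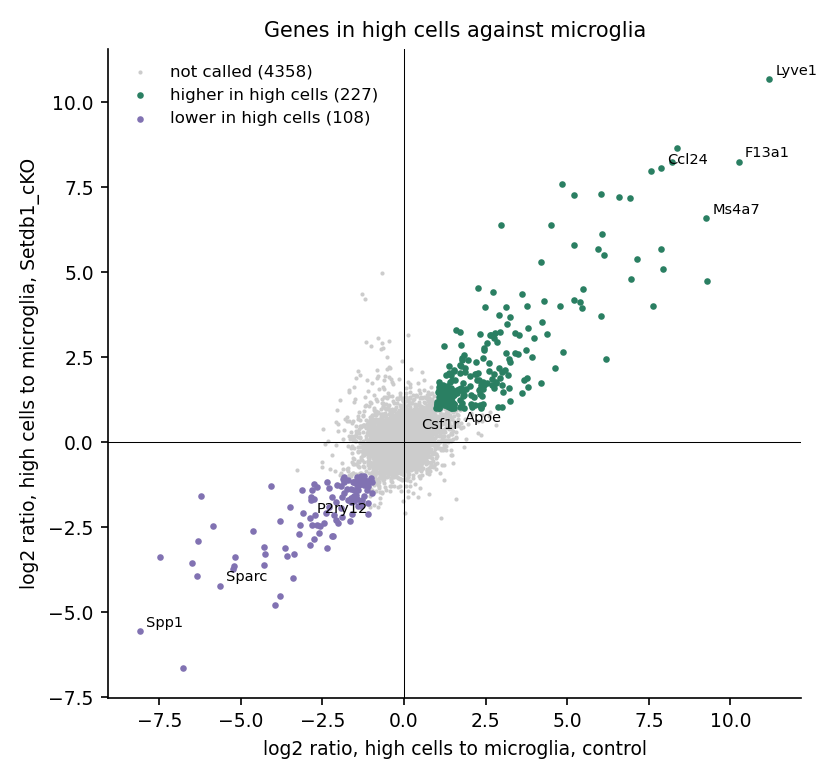
Log2 ratio of high cells to microglia in control (horizontal axis) against Setdb1_cKO (vertical axis), 1 point per measured gene outside the rule, with 0.5 UMI added to each sum so that genes without a UMI have a position. The 227 higher genes lie at the upper right and the 108 lower genes at the lower left, and the others lie between them.

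Genes known from border macrophages were higher in high cells than in microglia. Of 30 listed border macrophage genes outside the rule, 25 were measured, 23 of them were higher and 0 lower, and their median log2 ratio was 5.45 in control and 4.15 in Setdb1_cKO, against -0.05 and 0.07 over all genes. The summed level of the list, all members included, was 4.82 times that of microglia (4.66 to 4.98) in control and 2.15 times (2.09 to 2.20) in Setdb1_cKO. This sum is weighted toward Apoe, the most abundant member, described below. Lyve1 had a lowest, median and highest count of 0, 10 and 41 UMIs per control high cell and 0, 8 and 28 per Setdb1_cKO high cell, and no UMI in 87 and 103 microglia. Its level was 2264 CPM and 1223 CPM, at least 390-fold and at least 277-fold higher than in microglia when 3 UMIs over the microglia are taken as the floor. F13a1 had 0, 6 and 21 UMIs per control high cell and 0, 5 and 15 per Setdb1_cKO high cell. Microglia held 0 and 1 UMI of it, so the level was at least 203-fold higher in control and 459-fold (81.9 to 18177) in Setdb1_cKO. Microglia overlapped only with the high cells at 0 or 1 UMI.

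Scavenger receptor genes were mostly higher too. Of 21 in the files, 13 were measured, 11 were higher and 1 was lower. Cd163, the receptor for haemoglobin bound to haptoglobin, had 284 CPM and 224 CPM in high cells and no UMI in microglia, at least 48.9-fold and 50.8-fold higher. Cd36, which takes up oxidised lipoproteins and fatty acids, had 316 and 299 CPM and likewise none in microglia. Stab1, which clears modified proteins from fluid, had 1275 and 769 CPM against 79.4 and 91.4 in microglia, a ratio of 16.1 (11.7 to 22.6) and 8.42 (6.45 to 11.2). The endocytic adaptor Dab2 had 2801 and 2080 CPM against 65.8 and 119, a ratio of 42.6 (30.3 to 61.7) and 17.4 (13.9 to 22.1). Lrp1, a large uptake receptor, was the lower member, at 0.266 (0.177 to 0.389) and 0.329 (0.245 to 0.438) of its level in microglia. The tetraspan genes Ms4a6b, Ms4a6c and Ms4a7 were higher as well, Ms4a7 with 591 and 499 CPM against 0 and 4.42.

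Chemokine genes included 5 higher members. Of 19 listed, 10 were measured, Ccl2, Ccl7, Ccl12, Ccl24 and Cxcl2 were higher and 0 lower. Ccl7, which attracts monocytes, reached 2368 and 1687 CPM against 11.6 and 5.90 CPM, a ratio of 204 (93.4 to 557) and 286 (111 to 1052). Per high cell it had 0, 10 and 69 UMIs in control and 0, 8.5 and 60 in Setdb1_cKO, so its level varied widely among the cells. Ccl24, which attracts eosinophils, reached 1141 and 1766 CPM, a ratio of 295 (81.2 to 2439) and 300 (117 to 1102). Ccl2, also a monocyte attractant, reached 2100 and 1704 CPM against 32.9 and 32.4 CPM, a ratio of 63.8 (39.7 to 110) and 52.6 (34.5 to 84.2). Cxcl2, which attracts neutrophils, was concentrated in fewer cells, 27 of 89 and 22 of 80. Ccl3 and Ccl4, which microglia also make, were not among the 5: Ccl4 had a ratio of 2.36 (1.82 to 3.07) in control and 0.465 (0.394 to 0.548) in Setdb1_cKO.

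Cytokine and growth factor genes were mixed. Of 23 listed, 9 were measured, Tnf and Bmp2 were higher and Csf1 and Spp1 lower. Spp1, which encodes osteopontin and is known from microglia near growing axon tracts, had 10.5 and 111 CPM in high cells against 3157 and 5303 CPM in microglia, a ratio of 0.00333 (0.00108 to 0.00779) and 0.0210 (0.0162 to 0.0268). Its microglial UMIs came from only 11 of 87 control and 37 of 103 Setdb1_cKO microglia. Bmp2, a growth factor of the bone morphogenetic family, had 105 and 204 CPM in high cells against 1.94 and 2.95 CPM.

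Genes of iron and haem handling, complement and interferon response included members on the higher side. Of 18 iron genes 11 were measured, and Cd163, Slc40a1, Blvra, Blvrb and Trf were higher. Slc40a1, the iron exporter ferroportin, had 314 and 211 CPM against 38.7 and 50.1 CPM, a ratio of 8.10 (5.06 to 13.6) and 4.21 (2.86 to 6.34). Of 17 complement genes other than C1q, 6 were measured, 3 were higher, C5ar1 and Cfp among them, and Itgam was lower. Of 31 interferon response genes in the files, 9 were measured and 8 were higher, among them Ifi27l2a, Ifi204, Ifi207 and Ifitm3, and 0 lower. The summed interferon list was 3.61 times that of microglia (3.21 to 4.07) in control and 4.95 times (4.36 to 5.63) in Setdb1_cKO. In clean high cells 8 interferon genes were measured and 6 were higher. H2-K1 and H2-D1 of the MHC class I list were higher as well.

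Transcription factors differed in both directions. Of 30 listed, 23 were measured, Maf, Klf2, Klf4, Klf6 and Egr2 were higher, and 3 were lower, Sall1 and Bhlhe41 among them. Maf, a factor of macrophage identity, had 1947 and 1336 CPM against 660 and 479 CPM, a ratio of 2.95 (2.60 to 3.35) and 2.79 (2.45 to 3.18). Sall1, which maintains microglial identity, had ratios of 0.102 (0.0428 to 0.211) and 0.149 (0.0686 to 0.288). Of 24 immediate early and heat shock genes, 21 were measured and 8 were higher, among them Fos, Fosb, Dusp1 and Nr4a1, and 0 lower.

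Microglia genes were lower in high cells. Of 24 listed, 21 were measured, 18 were lower and only Nrros, which anchors latent TGF-beta, was higher, at 2.68 (1.91 to 3.82) and 2.62 (1.85 to 3.74). The median log2 ratio of the list was -2.81 and -2.22. In clean high cells 18 members were measured, 14 were lower and Nrros was again higher. P2ry12 had 0, 0 and 3 UMIs per control high cell and 0, 0 and 4 per Setdb1_cKO high cell, against 0, 2 and 15 and 0, 1 and 18 per microglial cell. Its level was 88.4 and 89.4 CPM against 656 and 419 CPM, a ratio of 0.135 (0.0953 to 0.186) and 0.214 (0.156 to 0.287). It was not absent from high cells, 32 of 89 and 37 of 80 of which had at least 1 UMI. Tmem119, which microglia are known for, had 1 UMI in all high cells of each library, but it was not among the 18 genes called lower. Ecscr, named for endothelial cells, had no UMI in high cells and 114 and 84.0 CPM in microglia, at least 18.1-fold and 16.6-fold lower.

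Genes that macrophages and microglia share were nearer to each other. Of 20 such genes all 20 were measured, Cd14, a receptor for bacterial lipopolysaccharide, was higher, and Itgam, Ctss and Trem2 were lower. Csf1r had 1282 and 1071 CPM in high cells and 1026 and 884 CPM in microglia, a ratio of 1.25 (1.11 to 1.41) and 1.21 (1.08 to 1.36). Among 24 lysosomal protease genes 23 were measured, Ctsc was higher and 6 were lower, among them Ctsd, Ctsl, Ctss, Ctsz and Cst3. Apoe, the lipid carrier, was the most abundant border list member, with 20311 and 16292 CPM in high cells and 6368 and 11774 CPM in microglia. Its ratio of 3.19 (3.07 to 3.32) in control and 1.38 (1.34 to 1.43) in Setdb1_cKO kept it out of the count.

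Low cells differed from microglia in few genes. Of 4622 genes measured, 10 were higher (0.216%) and 7 lower (0.151%), and in clean cells 2 (0.0647%) and 4 (0.129%) of 3092. Of the 10 higher genes 6 were also higher in high cells. Of the 30 border genes 10 were measured in low cells and 3 were higher: Ms4a6c at 5.59 (2.45 to 14.9) and 4.16 (2.52 to 7.21), Dab2 at 3.61 (2.44 to 5.48) and 2.26 (1.75 to 2.96), and Stab1 at 2.07 (1.399 to 3.11) and 3.75 (2.84 to 5.03) times the level in microglia. In clean low cells 9 were measured and none of these calls held: Dab2 stood at 3.47 and 1.97, Stab1 at 1.91 and 3.09, and Ms4a6c was not measured. The border gene Ifitm3 was lower there than in clean microglia. Lyve1 had 5 UMIs in all control low cells and 1 in all Setdb1_cKO low cells. P2ry12 stood at 679 and 414 CPM in low cells, beside 656 and 419 CPM in microglia. The proliferation gene Mki67 was also higher, at 2.66 (1.84 to 3.91) and 2.94 (2.04 to 4.34), from 14 low cells in each library. The share of thinned low cells with Top2a or Mki67, given below, was above that of microglia in control only. Low cells were deeper than microglia in both libraries, and how far depth or stray RNA brought cells past 3 UMIs of Mrc1 and Pf4 was not tested.

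For shares of cells with a UMI, each cell was thinned to 2000 UMIs and shallower cells were left out. Lyve1 was then found in 78 of 85 control high cells, 91.8% (83.8 to 96.6%), and in 52 of 74 Setdb1_cKO high cells, 70.3% (58.5 to 80.3%). Before thinning the shares were 98.9% and 87.5%. Among thinned low cells it was found in 0 of 56 and 0 of 76, which allows shares of up to 5.36% and 3.95% at that depth, while 4 of 58 and 1 of 79 low cells had a UMI before thinning. Thinned neurons had it in 0 of 3233 and 0 of 4169. MHC class II genes H2-Aa, H2-Ab1 or H2-Eb1 were found in 0 of 85 and 1 of 74 high cells, 0% and 1.35%, beside 0.217% and 0.456% of neurons, and Ccr2, a monocyte receptor, in 0 and 1. Most high cells thus carried Lyve1 in both libraries, and an MHC class II subset was not detectable at this depth. Top2a or Mki67, which cycling cells carry, was found in 14 of 85 control and 9 of 74 Setdb1_cKO high cells, 16.5% (9.31 to 26.1%) and 12.2% (5.71 to 21.8%), with intervals that overlap. In low cells the shares were 28.6% (17.3 to 42.2%) and 13.2% (6.49 to 22.9%), in microglia 11.0% and 15.7%, and in neurons 1.89% and 1.18%. Unthinned, 21 of 89 and 16 of 80 high cells and 23 of 58 and 20 of 79 low cells had either gene.

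Setdb1 itself was measured next, as a check of the genotype labels. It had 26 and 31 UMIs in control and Setdb1_cKO high cells, in 20 of 89 and 23 of 80 cells, a ratio of 0.956 (0.549 to 1.68). Over all gated cells the ratio was 0.873 (0.585 to 1.31). A lower level was not detectable at this depth, and a 3' tag outside deleted exons would not show their loss.

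Between the libraries many genes of high cells were past 2-fold, and RNA of other cell types moved with them. Of 5190 genes with at least 30 UMIs over both libraries, 341 were at least 2-fold higher in Setdb1_cKO (6.57%) and 113 lower (2.18%). Unlike the counts against microglia, all counts between the libraries took the ratio alone, whether or not its interval was clear of 1. Genes near 30 UMIs could thus pass through counting error. The summed level of 10 neuron marker genes was 3.16 times higher (2.84 to 3.53) and that of 10 radial glia and astrocyte genes 2.03 times (1.86 to 2.23), and red blood cell genes had 6 UMIs in control and 1043 in Setdb1_cKO. In clean high cells these lists stood at 1.01 (0.823 to 1.25), 0.846 (0.633 to 1.13) and 5 against 4 UMIs. The number of genes then fell to 67 higher (1.98%) and 69 lower (2.03%) of 3391. Of the genes that led in all high cells, Meg3, a neuronal noncoding RNA, went from a ratio of 10.7 (7.58 to 15.5) to 1.68 in clean cells, and Reln, the secreted signal of Cajal-Retzius cells, from 8 and 126 UMIs to 7 and 8. Their ratios in all high cells moved with those lists.

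Gm43305 and Lpl stayed apart in clean high cells. Gm43305, a noncoding transcript (chr14:54292443-54297456, minus strand, GRCm38), had 2 UMIs in 2 of 89 control high cells and 73 UMIs in 34 of 80 Setdb1_cKO high cells, with at most 5 UMIs in a cell. The ratio was 29.3 (7.82 to 246), and in clean high cells 29.8 (7.87 to 253), from 2 and 54 UMIs. Low cells of control already carried it, with 28 UMIs in 17 of 58 cells against 70 in 34 of 79, a ratio of 1.43 (0.912 to 2.31), and microglia had a ratio of 3.96 (2.26 to 7.41). Among its neighbours, Abhd4 and then Dad1 on the side of lower coordinates had ratios of 0.744 (0.322 to 1.71) and 1.18 (0.908 to 1.54) in high cells, and Oxa1l on the other side had 0.830 (0.477 to 1.45). Lpl, lipoprotein lipase, had 7 UMIs in 7 control high cells and 111 in 26 Setdb1_cKO high cells, with 36 of these in 1 cell. Its ratio was 12.7 (5.97 to 32.4), in clean high cells 10.9 (4.71 to 30.8), or 6.48 (2.67 to 18.9) without the 3 clean cells that did not have more border than microglia UMIs, in clean low cells 2.43 (1.90 to 3.14) and in clean microglia 4.14. In control both genes were lower in high cells than in microglia, where Gm43305 had 29.03 CPM and Lpl 135 CPM.

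**Figure D4:**
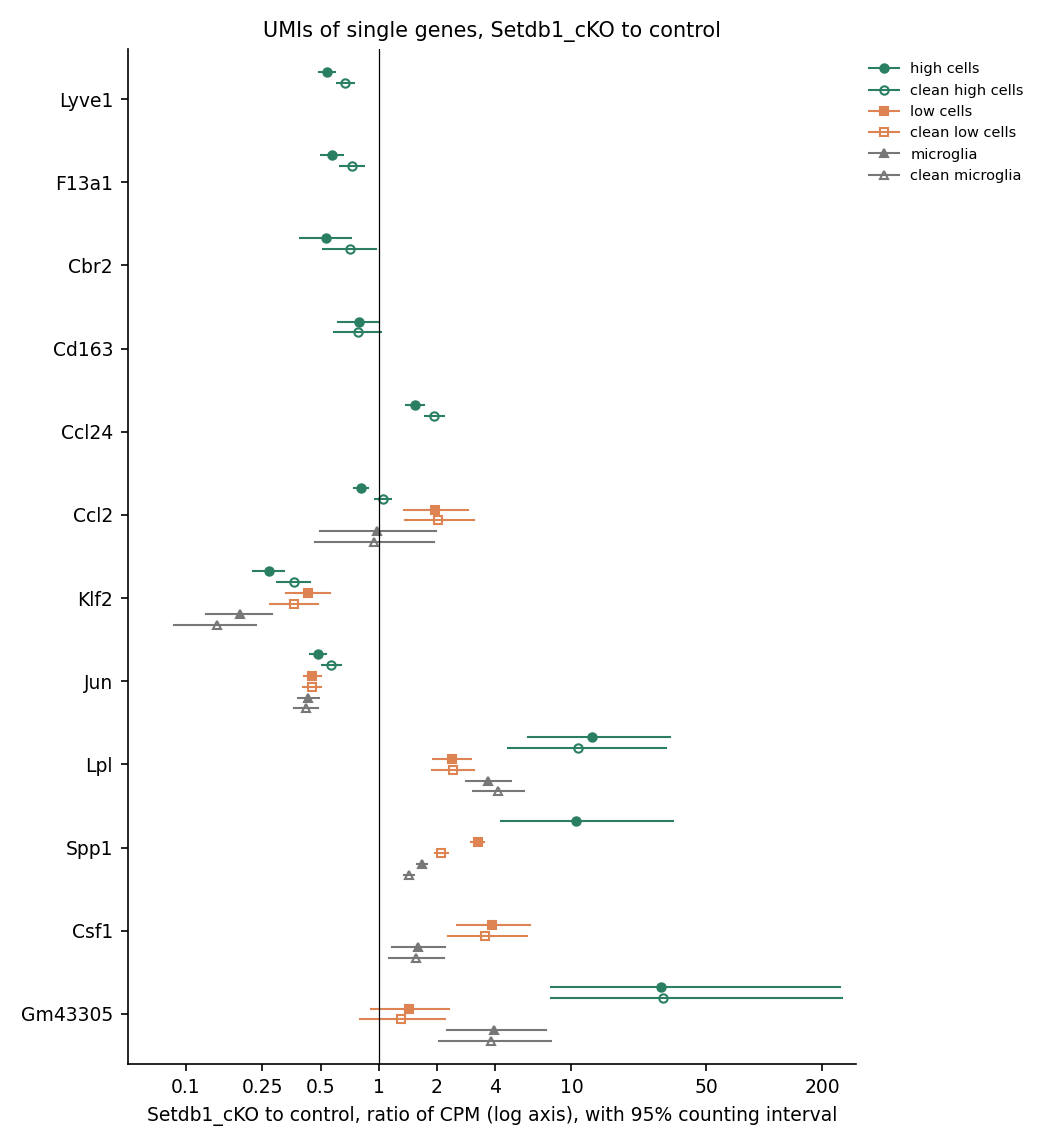
Ratio of Setdb1_cKO to control (logarithmic axis) with 95% counting intervals for 12 genes in high cells, low cells and microglia, all cells and clean cells; a gene under 30 UMIs in a population has no point there. Klf2 and Jun lie below 1 in every population drawn, Lyve1, F13a1 and Cbr2 lie below 1 in high cells, and Gm43305 lies farthest above 1 in high cells, at 29.3.

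Klf2 and several immediate early genes were lower in Setdb1_cKO high cells. Klf2, a factor that restrains inflammatory genes in macrophages and endothelium, had 0, 3 and 41 UMIs per control high cell and 0, 0 and 26 per Setdb1_cKO high cell, so the ranges overlapped. It was seen in 71 of 89 and 39 of 80 cells, and its ratio was 0.269 (0.224 to 0.323), 0.364 (0.298 to 0.442) in clean high cells. After thinning, 64.7% (53.6 to 74.8%) and 36.5% (25.6 to 48.5%) of high cells had it, beside 0.340% and 0.888% of neurons. In clean low cells the ratio was 0.364 (0.272 to 0.484) and in clean microglia 0.145 (0.0874 to 0.231), so it was not lower in high cells alone. In clean high cells Dusp1, a MAP kinase phosphatase, had a ratio of 0.455 (0.375 to 0.550) and the AP-1 members Fosb and Jun 0.473 (0.371 to 0.599) and 0.569 (0.509 to 0.636). Summed over 24 immediate early and heat shock genes, the ratio was 0.818 (0.787 to 0.849) in clean high cells, 0.669 (0.644 to 0.695) in clean low cells and 0.769 (0.734 to 0.806) in clean microglia. Not all members followed: Nr4a1 and Egr3 were higher in clean high cells, at 2.35 (1.52 to 3.69) and 3.49 (2.05 to 6.19).

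The genes by which high cells are known shifted by less than Klf2. Over 26 measured border genes, 0 were 2-fold higher and 0 lower in clean high cells, with a median log2 ratio of -0.21 beside 0.00 over all genes, and the summed ratio was 0.928 (0.907 to 0.950). That sum is weighted toward Apoe, the most abundant member. In all high cells the summed ratio was 0.771 (0.755 to 0.787). Over all gated cells it was 0.967 with Apoe and 0.731 (0.711 to 0.752) without it. In clean high cells Lyve1 had a ratio of 0.672 (0.605 to 0.745) and F13a1 0.727 (0.630 to 0.838). Cbr2 had 0.709 (0.515 to 0.970), while Cd163 had 0.781 (0.588 to 1.03). Among cells with more border than microglia UMIs these were 0.739, 0.799, 0.779 (0.566 to 1.07) and 0.858 (0.646 to 1.13). Ccl24 was a member on the other side, with 500 and 882 UMIs and a ratio of 1.95 (1.74 to 2.18). Bmp2 had 48 and 108 UMIs in clean high cells, 2.49 (1.75 to 3.57), and Cd14 had 44 and 93, 2.34 (1.61 to 3.42). The cell cycle inhibitor Cdkn1a had 20 and 60, 3.32 (1.97 to 5.81). Chd9, a chromatin remodeller, had 54 and 16 UMIs in clean high cells, 0.327 (0.175 to 0.581). Interferon response genes had a summed ratio of 1.09 (0.995 to 1.18), and 1 of 12 measured, Cxcl10, was past 2-fold, with its 11 and 40 UMIs in 2 and 5 cells. A single Setdb1_cKO cell with 1 border and 20 microglia UMIs held 20 of the 40, and without it the ratio of Cxcl10 was 2.06 (0.939 to 4.75).

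**Figure D5:**
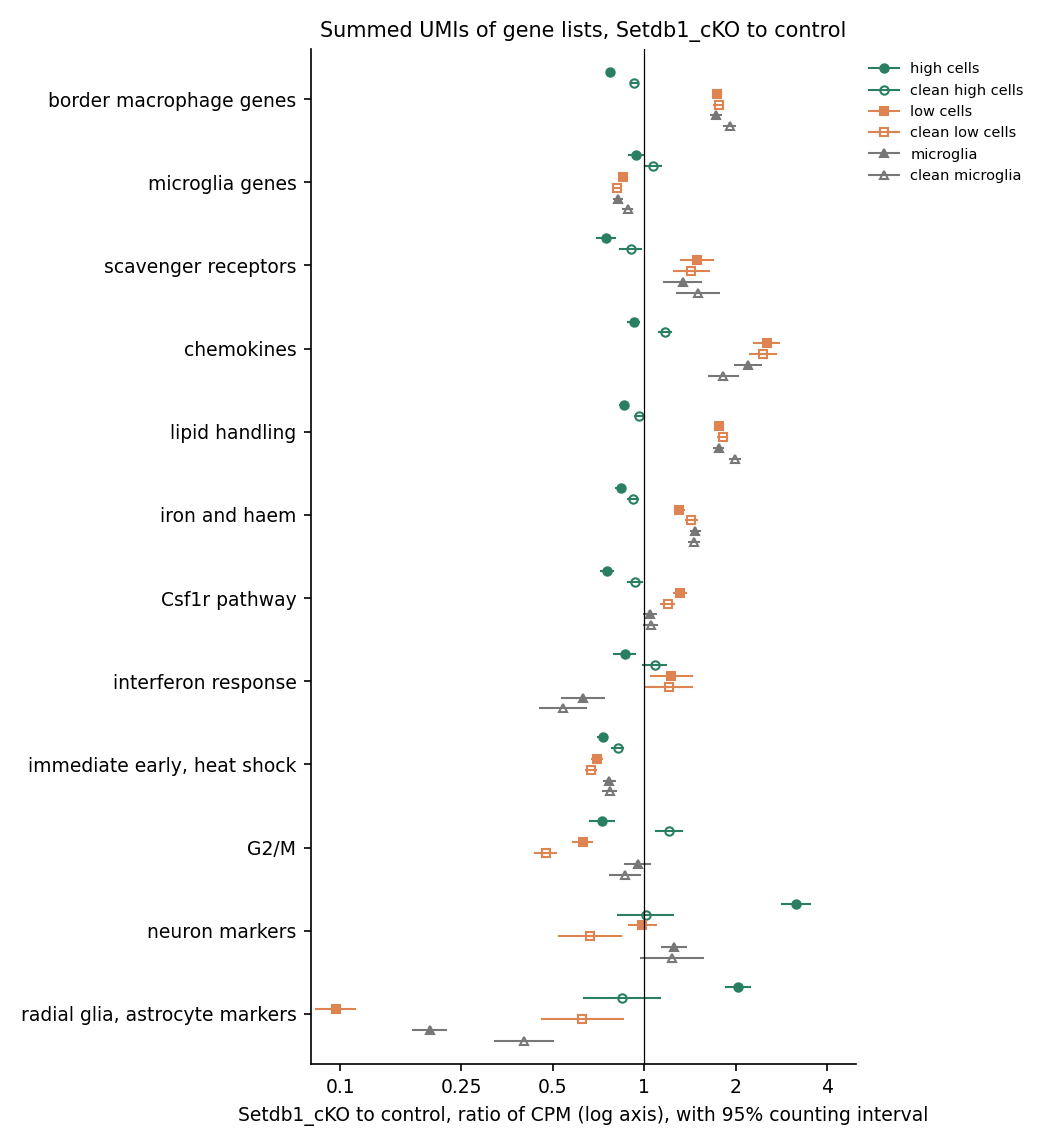
Ratio of the summed UMIs of a gene list, Setdb1_cKO to control (logarithmic axis), with 95% counting intervals, for 12 lists in high cells, low cells and microglia, all cells and clean cells. The neuron and radial glia lists stand at 3.16 and 2.03 in high cells and near 1 in clean high cells, and the G2/M list is at 0.729 in high, 1.21 in clean high and 0.474 in clean low cells.

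Low cells were compared between the libraries in the same way. Of 5480 genes, 132 were at least 2-fold higher in Setdb1_cKO (2.41%) and 237 lower (4.32%), and in clean low cells 123 (2.89%) and 164 (3.86%) of 4253. Red blood cell genes had 4659 UMIs in control low cells and 6 in Setdb1_cKO, and the radial glia and astrocyte list had a ratio of 0.0964. In clean low cells these were 10 and 4 UMIs and 0.626 (0.461 to 0.852). Clean low cells of Setdb1_cKO had more of the chemokines Ccl4, with 88 and 887 UMIs and a ratio of 4.99 (4.001 to 6.28), and Ccl3, at 2.95 (2.46 to 3.57). They also had more of the lysozyme Lyz2, at 2.96 (2.39 to 3.69), of Csf1, at 3.57 (2.28 to 5.87), and of Hmox1, haem oxygenase, at 4.41 (2.48 to 8.54). The same genes in clean high cells had ratios of 0.963 (0.768 to 1.21), 1.12 (0.952 to 1.33) and 0.920 for Ccl4, Ccl3 and Lyz2, and 1.01 (0.727 to 1.401) for Hmox1. Csf1 had 1 and 6 UMIs there, too few to be measured. In clean microglia Ccl4 stood at 3.12 and Lyz2 at 3.77. For gated cells as a whole, which mix both ranges in unequal shares, 243 genes were higher (3.07%) and 163 lower (2.06%) of 7924, and 97 (1.59%) and 152 (2.49%) of 6112 in clean cells. Microglia had 122 higher (2.29%) and 180 lower (3.37%) of 5339, and clean microglia 90 (2.56%) and 107 (3.04%) of 3520.

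Cell cycle genes were lower in Setdb1_cKO low cells, and their ratio above 1 in clean high cells rested on a single cell. The summed ratio of 28 G2/M genes was 0.627 (0.585 to 0.672) in low cells and 0.474 (0.438 to 0.512) in clean low cells, where 12 of 21 measured members were lower. In high cells it was 0.729 (0.666 to 0.799), and in clean high cells 1.21 (1.09 to 1.34) with 0 of 14 measured members past 2-fold. In clean high cells, 232 of the 823 Setdb1_cKO G2/M UMIs came from 1 cell at the boundary of 15 Mrc1 and Pf4 UMIs, with 0 border and 38 microglia UMIs. Without that cell the ratio was 0.914 (0.819 to 1.02) in clean high cells and 0.558 (0.505 to 0.615) in all high cells. Among clean high cells with more border than microglia UMIs it was 0.946 (0.848 to 1.06). Clean microglia had 0.866 (0.775 to 0.968).

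Lists of genes tied to Setdb1 were compared between the libraries as well. Over 24 genes of H3K9 methylation and its partners the summed ratio in clean high cells was 0.973 (0.835 to 1.13). A list of 34 germline genes had 19 and 6 UMIs in clean high cells, too few for any member to be measured. The 11 genes that an earlier look at these libraries had found higher in every main neural class had a summed ratio of 2.91 (2.33 to 3.67) in high cells and 1.53 (1.10 to 2.14) in clean high cells, or 1.35 (0.956 to 1.90) without the cell with most of their UMIs, beside 1.49 (1.06 to 2.14) in clean low cells and 1.31 (0.912 to 1.89) in clean microglia. That list was picked on these libraries and is no independent evidence, and in clean high cells 2 of its members were measured, with 0 past 2-fold.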

How the data were processed

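UMI counts per gene and barcode from 2 libraries (1 control, 1 Setdb1_cKO) were analysed. The deposited matrices give raw whole-number counts, as the matrix headers and values show. Per the submitters' processing notes the tools were Cell Ranger 7.1.0 and Seurat, with the mm10 genome. They leave the annotation release, intronic reads and cell calling unnamed, details not given in the sources used here. In total, the libraries held 82393428 and 87845965 UMIs in 14397 and 12060 barcodes, the lowest with 500 UMIs. The members, gene lists and tests were chosen with earlier results of these data known, and the boundary of 15 UMIs, the clean-cell limit and the 6 defining genes per set after the counts had been seen.

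UMIs were summed per population and library and scaled to CPM. The interval of a ratio is the exact conditional Poisson one, that of a share the Clopper-Pearson one (both 95%, counting error only). With 1 library per group no p-value was computed. Log2 ratios used a pseudocount of 0.5 UMI, a gene was measured at 30 UMIs, and gate genes were left out. Cells are not replicates.

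Named genes had at least 20 CPM and UMIs in at least 5 cells of the higher group. They were ranked by the interval bound nearest 1, taking the 15 highest and 12 lowest against microglia and 12 each way between libraries. Genes of the gate, the mitochondrion, ribosomal proteins, haemoglobin or the sex chromosomes' dimorphic transcripts were dropped from these without replacement. Setdb1 and up to 6 members per list by level could be added, and other genes named (such as Nrros, Tmem119, Ms4a6b and Nr4a1) were chosen after their values were seen. For doublets, Scrublet was run through scanpy 1.11.5 at an expected rate of 8% and called 646 of 12574 control and 639 of 11017 Setdb1_cKO barcodes. TMM factors came from edgeR 4.0.16 (R 4.3.3), and other steps ran in Python 3.11.15. The ratio code was tested on simulated data, and the thinning code was not. Coordinates came from GENCODE vM21 (32158 of 32285 identifiers matched), and promoter windows from RefSeq on GRCm38.p6. Neurons were cells without a C1q UMI and with over 0.1% of UMIs from Stmn2. Alternatives were other gates, stricter cell filters, doublets left out, other minimums of UMIs, TMM scaling, mean per-cell CPM and no thinning, and, for clean high cells and chosen after seeing the data, only cells with more border than microglia UMIs or all but the top cell. Some genes of the lists are counted in their sums but not reported here by name.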

Additional observations from a re-analysis of the deposited data

Results flagged for a closer look

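The ratio of Setdb1_cKO to control lay on opposite sides of 1 in clean high and clean low cells for 8 gene lists, with both intervals clear of 1. The difference between the populations was not tested, and each value rests on 1 library per genotype. These were picked from a larger number of lists. Some share members, such as Cd163 in the border, scavenger receptor and iron lists, so the 8 are not independent. The G2/M genes had 1.21 in clean high and 0.474 in clean low cells, but 0.729 in all high cells and 0.914 in clean high cells without 1 boundary cell with a microglia profile. Microglia genes had 1.07 and 0.814, but 0.941 (0.892 to 0.993) in all high cells and 0.987 (0.926 to 1.05) in clean high cells with more border than microglia UMIs. In both lists the opposite direction thus depends on which high cells are kept. Border macrophage genes outside the rule had 0.928 and 1.76, and lipid handling genes 0.963 and 1.82, and Apoe is a member of both. In all low cells Apoe had 9496 CPM in control and 17335 CPM in Setdb1_cKO. In microglia it had 6368 and 11774 CPM, so it was higher in Setdb1_cKO there as well. Scavenger receptors had 0.903 and 1.43, and iron and haem genes 0.920 and 1.43. Genes for the uptake of dying cells had 0.910 and 1.22, and Csf1r pathway genes 0.935 and 1.19. In clean high cells with more border than microglia UMIs, the lipid list was 0.976 (0.947 to 1.01), scavenger receptors 0.955 (0.881 to 1.03) and Csf1r pathway genes 0.956 (0.907 to 1.01), with intervals that include 1.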

How the results depend on the processing

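No paired analysis was possible because each genotype had 1 library and the labels give no replicate numbers. No replicate could be left out, for the same reason. Of 121 recomputed values for the gated cells, 77 kept their direction and stayed within the limits set for them, 41 moved and 3 reversed; the cause was not tested. The microglia list, 0.949 in the main setting, reversed to 1.20 with Mrc1 and Pf4 at least 6, 1.01 without doublets and 1.03 in clean cells, and was 0.910 under stricter cell filters and 0.987 without Cst3. The border list (0.967) was 0.769 at 6 or more, 0.771 at 15 or more, 0.950 with C1q at least 10, 0.912 under stricter filters and 0.731 without Apoe. The G2/M list (0.685) was 0.766 at 6 or more, 0.729 at 15 or more, 0.739 with C1q at least 10, 0.747 under stricter filters and 0.626 without doublets. The earlier 11-gene list (2.58) was 1.73 without doublets and 1.43 in clean cells.

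Against microglia, the 146 higher genes became 227 at 15 or more. The 14 lower genes became 43 at 6 or more, 108 at 15 or more, 23 under stricter filters, 28 without doublets, 27 with a minimum of 10 UMIs and 32 with none. Between libraries, the 243 higher genes became 137 without doublets, 97 in clean cells, 762 with a minimum of 10 UMIs and 2968 with none. The 163 lower genes became 523 and 1852 with these minimums and 251 by mean per-cell CPM. The gated share became 0.911% and 1.18% at 6 or more in control and Setdb1_cKO, 0.780% and 0.804% at 15 or more, and 1.07% and 1.34% for clean cells. Gated cells with Lyve1 (55.3% and 34.7%) became 78.8% and 47.7% at 6 or more and 91.8% and 70.3% at 15 or more, and 44.7% unthinned in Setdb1_cKO. Those with Top2a or Mki67 (21.3% and 12.7%) became 29.9% and 22.6% unthinned. Genes below 30 UMIs could not be compared at this depth. Setdb1 passed that minimum, with a wide interval of 0.585 to 1.31 in gated cells. In clean high cells, which were added after seeing the data, the G2/M ratio of 1.21 reversed to 0.946 among cells with more border than microglia UMIs and to 0.914 without 1 cell, and the microglia ratio of 1.07 reversed to 0.987 among the former.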
